A study of Mus musculus with 35 samples.

Results

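The comparison described here is between the omega-3 fatty acids EPA (C20:5) and DHA (C22:6) in wild-type mice, taken as the 5 arrays of small intestine labelled trieicosapentaenoin and the 5 labelled tridocosahexaenoin, which are 10 of the 35 arrays of the series. Both groups were pure-bred wild-type 129S1/SvImJ male mice, 4 months of age, kept for 2 weeks on a modified AIN76A diet with olive oil as fat source, fasted for 4 hours, given 400 µl of a triacylglycerol of 1 fatty acid by gavage and killed 6 hours later. The fatty acids were therefore compared at the same volume and the same time, and they are the only pair compared. The other arrays hold wild-type mice given triolein (oleic acid, OA) or the synthetic agonist WY14643, and PPARα-null mice (129S4/SvJae) given the same 4 agents, so that genotype and substrain cannot be told apart. RNA of the full-length small intestine was hybridised to mouse genome arrays, and each array is labelled as a separate sample, so the p-values measure the spread between these samples. In tissue homogenates, fewer cells of a type and less RNA per cell cannot be told apart.

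EPA (eicosapentaenoic acid) and DHA (docosahexaenoic acid) are the main long-chain fatty acids of fish oil, and they differ in chain length by 2 carbons and by 1 double bond. Both are ligands of PPARα, a nuclear receptor that pairs with RXR and raises the transcription of genes for fatty acid oxidation, microsomal omega-hydroxylation (the Cyp4a enzymes), acyl-CoA hydrolysis and the switch from glucose to fat as fuel. In the enterocyte, absorbed fatty acids are bound, activated, re-esterified and exported in chylomicrons, and a smaller part is oxidised in mitochondria and peroxisomes.

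The array labelled wild-type EPA replicate 5 went against its genotype label, which has to be stated before any result. The probeset shared by Cyp4a10 and Cyp4a31, which encode PPARα-induced omega-hydroxylases, read 8.43, 8.64, 8.68 and 8.15 on the log2 intensity scale in EPA replicates 1 to 4 and 1.81 in EPA replicate 5. Across the 17 other wild-type arrays it lay between 8.15 and 12.7, and across 15 PPARα-null arrays between 1.36 and 2.50. Of the remaining PPARα-null arrays, the one labelled OA replicate 1 read 10.6 and the one labelled EPA replicate 5 read 9.91, both within the wild-type range. Ppara itself, on the dimmer of its probesets, read 7.17, 6.34, 8.03, 6.46 and 4.82 in EPA replicates 1 to 5. The last lay below every other wild-type array, whose lowest value was 5.60. Across the same 15 PPARα-null arrays this probeset read 4.32 to 6.56, which overlaps the wild-type range, so it does not part the genotypes alone. Because of the Cyp4a10 reading, the calls, most differences and the list medians are given with all arrays and without EPA replicate 5. Counts of list members above or below 0 and promoter shares are given with all arrays only. The same holds for comparisons with the means of the other agents. All 8 groups share 1 estimate of the spread in the fits, so the 2 PPARα-null arrays also enter the error of the wild-type comparison, and the calls of a fit without all 3 arrays and of a fit on only the 9 remaining wild-type EPA and DHA arrays are given too. The fit on the 9 arrays called 19 genes (0.22% of those tested), 8 higher (0.0927%) and 11 lower (0.128%) after EPA.

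With all arrays, 62 of 8626 expressed genes differed between EPA and DHA at an adjusted p under 0.05, which is 0.719% of the genes tested. After EPA 40 genes (0.464%) were higher and 22 (0.255%) lower than after DHA. Without EPA replicate 5, 25 genes differed (0.29%), of which 20 (0.232%) were higher and 5 (0.058%) lower. The fits shared 24 genes, or 38.7% of the 62 and 96% of the 25, and all 79 probesets called with all arrays kept their direction. On the 9 wild-type arrays alone, 7 of the 25 were called (Ido1, Clec7a, Prss30, Rhob, Csf2rb, Ddhd2 and Gclc), and the other 18 had a lowest adjusted p between 0.0587 and 0.175. That fit also called Per2, Aldh1a7 and Slc35e3, which are among the 62, and 9 genes called in neither fit. Without the 3 arrays that went against their labels all 25 were called, together with Slc5a8, Msn and Hsd17b2 of the 62 and 9 genes called in neither fit. A gene counted as expressed when a probeset exceeded 32 on the linear scale (log2 5) as the mean of at least 1 group, and adjusted p-values are from limma with Benjamini-Hochberg correction over 15384 probesets.

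Most of the differences were small. Only 15 of the 62 genes differed by 2-fold or more, and the median size of a called difference was 0.72 on the log2 scale. In 57 of the 62 genes the 5 EPA and the 5 DHA arrays did not overlap. Among all expressed genes the share was 4.44% (2.31% with EPA above and 2.13% with DHA above). In 58 of the 62 the 4 EPA arrays without replicate 5 and the 5 DHA arrays did not overlap, against 5.85% of all (3.25% and 2.61%). The genes were called on these same arrays, so little overlap follows from the call and is no separate support. EPA replicate 5 was the EPA array farthest from the DHA mean in 14 of the 22 lower genes and in 11 of the 40 higher genes. Leaving it out made the difference smaller in 19 of the 22 and in 27 of the 40, and the 38 genes that lost the call then had adjusted p-values between 0.0603 and 0.172. Other arrays also moved the count by over 1.5 times: it was 17 without DHA replicate 3, 37 without DHA replicate 5, 38 without EPA replicate 3 and 95 without EPA replicate 2. At the unadjusted p under 0.01 that the methods of the study use, 561 genes (6.5%) differed with all arrays, 275 higher (3.19%) and 286 lower (3.32%), and 401 (4.65%) without EPA replicate 5, 216 higher (2.5%) and 185 lower (2.14%).

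**Figure D1:**
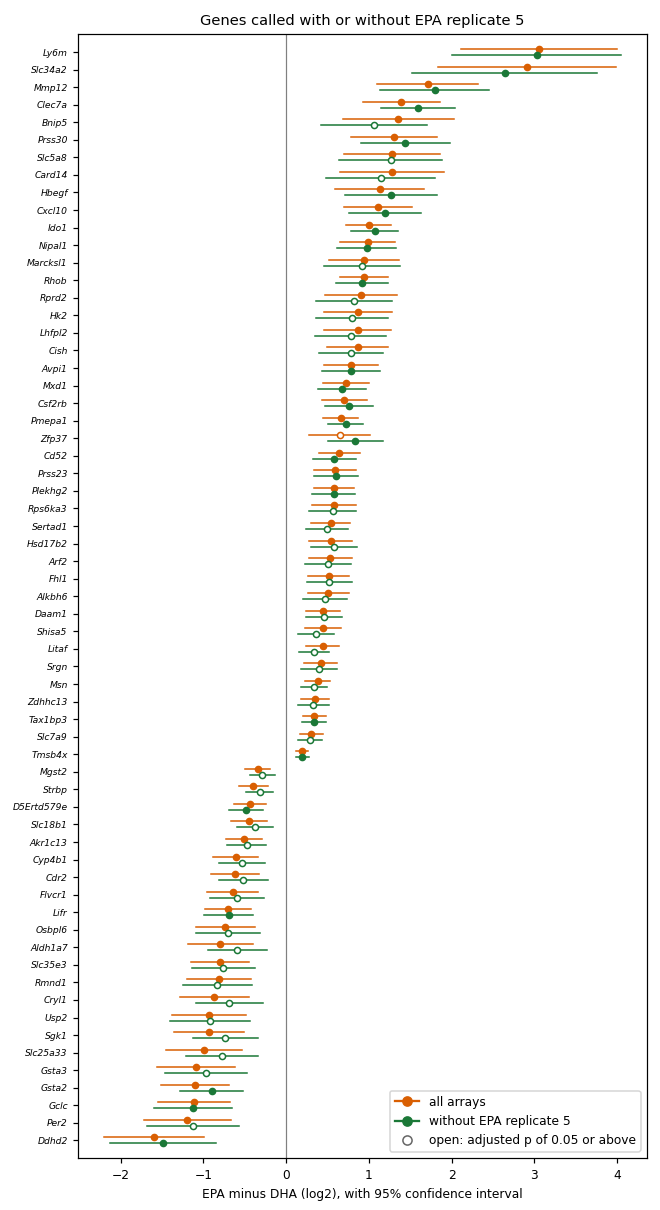
Difference between wild-type EPA and DHA arrays (EPA minus DHA, log2) for the 63 genes called with all arrays (orange) or without EPA replicate 5 (green), with 95% confidence intervals from limma; open circles have an adjusted p of 0.05 or above. Every gene lies on the same side of 0 in both fits, and 38 of the 62 genes called with all arrays have an open green circle.

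Among well-known PPARα target genes, the Cyp4a10 probeset, Pdk4, Acot1, Acot2 and Angptl4 had lower means after EPA than after DHA and did not pass the adjusted threshold in the fits over all groups, while Cyp4b1, described with the metabolic genes, passed with all arrays. For Cyp4a10/Cyp4a31 the DHA arrays read 9.78, 9.51, 9.51, 8.47 and 9.88 beside the EPA values above. The difference was -2.29 with all arrays (exact two-sided permutation p = 0.0238) and -0.95 without EPA replicate 5 (exact permutation p = 0.0317), where the smallest p the design allows is 0.00794. Without EPA replicate 5 the EPA arrays had a mean of 8.48 ± 0.24 (SD, n = 4) and the DHA arrays a mean of 9.43 ± 0.56 (SD, n = 5), and the ranges overlapped through DHA replicate 4. Pdk4 encodes the kinase that shuts pyruvate oxidation when fat is burned. It read 9.28, 9.46, 9.48, 9.35 and 6.03 in EPA replicates 1 to 5 and 10.57, 10.41, 10.41, 10.33 and 10.79 in DHA replicates 1 to 5. The first 4 EPA arrays lay close together, EPA replicate 5 lay far below them, and all DHA arrays lay above. The difference was -1.78 ± 0.59 (SE; adjusted p = 0.160) with all arrays and -1.11 ± 0.51 (adjusted p = 0.467) without EPA replicate 5, which is 2.16-fold lower after EPA. On the 9 wild-type arrays alone the same difference had an adjusted p of 0.00344.

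The acyl-CoA thioesterases Acot1 and Acot2, which hydrolyse acyl-CoA in the cytosol and in mitochondria, showed the same pattern. Acot1 read 8.07, 8.60, 8.28, 8.24 and 6.61 after EPA and 9.56, 9.35, 9.56, 9.14 and 9.89 after DHA. No EPA array reached the lowest DHA array, and the difference was -1.54 with all arrays (adjusted p = 0.0779) and -1.20 without EPA replicate 5 (adjusted p = 0.245). Acot2 read 7.22, 7.48, 7.22, 7.28 and 5.75 after EPA and 8.20, 8.06, 8.31, 8.09 and 7.95 after DHA, a difference of -1.14 (adjusted p = 0.131) with all arrays and -0.83 (adjusted p = 0.386) without EPA replicate 5. Without the 3 arrays that went against their labels, the adjusted p was 0.0678 for Acot1, 0.143 for Acot2 and 0.194 for Pdk4. On the 9 wild-type arrays alone both thioesterases passed, each with an adjusted p of 0.0172. Angptl4, a secreted inhibitor of lipoprotein lipase, read 8.58, 8.94, 9.21, 8.97 and 6.67 after EPA and 9.71, 9.88, 9.61, 9.43 and 9.97 after DHA. Its groups did not overlap either, but it missed the threshold in each of these fits, with an adjusted p of 0.208 with all arrays, 0.539 without EPA replicate 5 and 0.0643 on the 9 arrays.

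**Figure D2:**
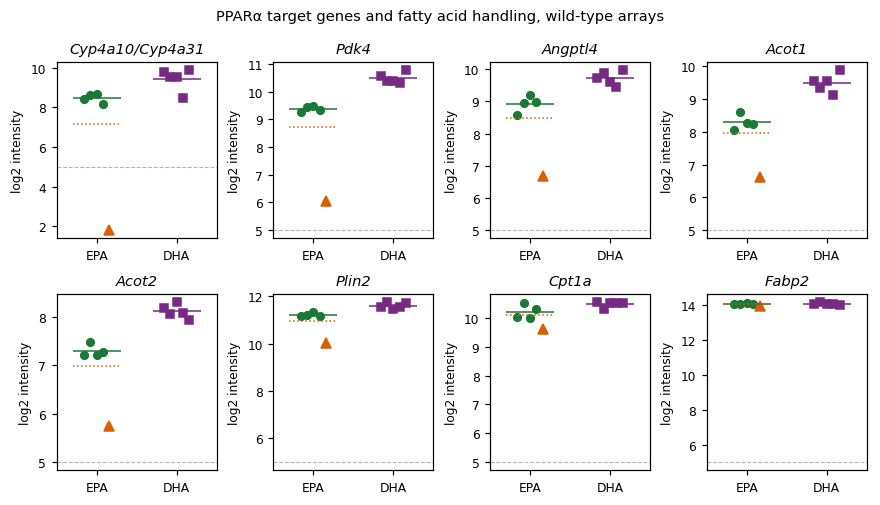
Log2 intensity of 7 PPARα target genes and of Fabp2 on the 5 wild-type EPA arrays (circles; triangle, EPA replicate 5) and the 5 DHA arrays (squares). Solid lines are the means without EPA replicate 5, dotted lines the EPA mean with it, and the dashed line the expressed level of 5. Pdk4, Angptl4, Acot1, Acot2 and Plin2 do not overlap between groups, and the Cyp4a10, Cpt1a and Fabp2 groups do.

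The fatty acid oxidation and thioesterase lists held no called gene in the fits over all groups, and most of their members had lower means after EPA. On the 9 wild-type arrays alone, Acot1 and Acot2 of the thioesterase list were called, as given above. Over 22 expressed genes of mitochondrial fatty acid oxidation, none were called and 18 were below 0. Their median was -0.26 with all arrays and -0.19 without EPA replicate 5, beside -0.01 and 0.00 over all expressed genes. Of all expressed genes, 48.3% were above 0 with all arrays, the share to set beside such counts in every list. At the unadjusted p under 0.01, 3.19% were higher and 3.32% lower with all arrays, and 2.5% and 2.14% without EPA replicate 5. Of the 22 genes, 5 passed that threshold with all arrays, all lower, and 1 without EPA replicate 5. That gene was Hadhb, the beta subunit of the mitochondrial trifunctional protein, at -0.76 and -0.66 on 1 probeset, while its brightest probeset gave -0.34 and -0.23. The 28 peroxisomal genes had a median of -0.14 and -0.12 with 2 and then 1 lower at that threshold, Nudt7, a peroxisomal coenzyme A diphosphatase, in both. The 11 thioesterase genes had the lower medians of -0.42 and -0.25, with 5 and then 2 lower at that threshold. On the 9 wild-type arrays alone the counts at that threshold were 5, 8 and 3 lower, and none higher, for the mitochondrial, peroxisomal and thioesterase lists, where 414 of all genes (4.8%) passed it, 231 higher (2.68%) and 183 lower (2.12%). The 6 expressed genes of omega-hydroxylation were 3 above and 3 below 0, with a median of 0.02 and 0.05, and Cyp4b1 among them was called lower with all arrays.

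Genes of absorption and export held no call. None of the 17 expressed genes of fatty acid uptake, binding and activation passed either threshold. Fabp1 and Fabp2, the abundant fatty acid binding proteins of the enterocyte, differed by -0.01 and -0.00 without EPA replicate 5, with 95% confidence intervals of -0.105 to 0.0937 and -0.0819 to 0.0752. Mttp, which loads triacylglycerol onto apolipoprotein B, differed by -0.08 (interval -0.230 to 0.0654) and Apoa4, a chylomicron apolipoprotein, by 0.02 (interval -0.0855 to 0.130). Apob, the apolipoprotein B gene, was measured less closely, at 0.08 (interval -0.551 to 0.708). These intervals do not reach the fitted differences of Pdk4 or Acot1 without EPA replicate 5. The intervals of those genes were wide, at -2.15 to -0.06 for Pdk4 and -2.03 to -0.37 for Acot1. That of Pdk4 overlapped all of the intervals above, and that of Acot1 overlapped the Apob interval. Of 27 expressed genes of triacylglycerol resynthesis and chylomicrons, 3 were lower at the unadjusted p under 0.01 with all arrays (Dgat2, Lpin2 and Fitm2), none without EPA replicate 5, and 2 on the 9 arrays. Dgat2, which makes triacylglycerol from diacylglycerol, differed by -0.42 and -0.39 (adjusted p = 0.198 and 0.371). The brightest Ppara probeset read 9.45, 9.91, 9.93, 9.56 and 8.14 after EPA and 10.37, 10.45, 10.35, 9.96 and 10.06 after DHA. Those groups did not overlap, and the difference was -0.84 (adjusted p = 0.246) and -0.52 without EPA replicate 5 (adjusted p = 0.592). The other Ppara probeset differed by -1.45 and -1.01, with exact permutation p-values of 0.0317 and 0.0635.

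The largest called differences were genes higher after EPA. Ly6m, a member of the Ly6 family of small surface proteins, read 8.97, 8.29, 9.20, 8.74 and 8.95 in EPA replicates 1 to 5 and 7.52, 6.34, 4.38, 5.18 and 5.45 in DHA replicates 1 to 5. All EPA arrays were above all DHA arrays, and the DHA arrays varied more (SD 1.20 against 0.34 for EPA). The difference was 3.06 ± 0.46 (SE; 8.33-fold; adjusted p = 0.000989) and 3.03 ± 0.50 (8.16-fold; adjusted p = 0.00372) without EPA replicate 5, and its adjusted p was 0.0587 on the 9 arrays. Slc34a2, the sodium-phosphate cotransporter of the brush border, read 8.06, 7.75, 8.07, 7.65 and 9.22 after EPA and 5.63, 5.18, 4.69, 7.23 and 3.47 after DHA. The groups did not overlap, DHA replicate 4 came closest to EPA, and the difference was 2.91 (adjusted p = 0.00608) and 2.64 without EPA replicate 5 (6.24-fold; adjusted p = 0.0298), with an adjusted p of 0.102 on the 9 arrays. Slc5a8, a sodium-coupled monocarboxylate transporter, read 8.69, 8.47, 8.71, 9.04 and 8.80 after EPA against 7.88, 7.84, 6.14, 8.27 and 7.18 after DHA. It passed with all arrays at 1.28 (adjusted p = 0.0274) and missed without EPA replicate 5 at 1.27 (adjusted p = 0.0830). Without the 3 arrays the same difference passed (adjusted p = 0.0385), and on the 9 arrays it missed (adjusted p = 0.216).

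Of the 11 marker genes of the distal small intestine, all expressed and none called, 10 were above 0 and the median difference was 0.24 with all arrays and 0.20 without EPA replicate 5. Their summed level lay between 15.01 and 15.18 on the log2 scale in the EPA arrays. In the DHA arrays it lay between 14.56 and 15.08, with DHA replicate 3 the lowest. That of 11 proximal markers lay between 15.4 and 15.5 in both groups. Sums were taken on the linear scale, so the brightest markers weigh most, here distal Fabp6 and proximal Fabp1 (means of 13.8 and 14.9 after EPA). Proximal Cybrd1 varied from 6.19 to 8.97 after EPA and from 5.83 to 8.03 after DHA. Slc10a2, the ileal bile acid transporter, read 9.94, 9.37, 9.48, 10.07 and 9.24 after EPA and 9.34, 9.40, 7.59, 8.52 and 9.00 after DHA, a difference of 0.85 (adjusted p = 0.239). The part of this shift in the transporter results was not tested.

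Ido1 encodes the enzyme that breaks tryptophan down to kynurenines and had the lowest adjusted p of any named gene. It read 8.46, 8.47, 8.81, 8.51 and 8.18 after EPA and 7.32, 7.87, 7.62, 7.21 and 7.42 after DHA. The groups did not overlap, and the difference was 1.00 ± 0.13 (SE; 1.99-fold; adjusted p = 0.000328) and 1.07 ± 0.14 (2.10-fold; adjusted p = 0.000212) without EPA replicate 5. Clec7a, the beta-glucan receptor of myeloid cells, read 5.68, 5.76, 5.37, 5.89 and 4.67 after EPA and 4.37, 4.03, 4.24, 4.09 and 3.70 after DHA. Mmp12, the macrophage metalloelastase, read 5.11, 6.17, 6.09, 7.13 and 5.70 against 4.97, 4.74, 3.40, 4.11 and 4.43. Both were expressed after EPA and under the expressed level after DHA, and neither overlapped. The EPA means were 1.39-fold and 2.05-fold above that level, so the genes were at least so many fold higher than after DHA. The fitted differences of 1.39 and 1.71 (adjusted p = 0.00250 and 0.00522) became 1.59 and 1.79 without EPA replicate 5 (adjusted p = 0.000384 and 0.00856). On the 9 arrays Clec7a passed (adjusted p = 0.00977) and Mmp12 missed (adjusted p = 0.112).

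Cxcl10, a chemokine induced by interferon, read 4.96, 5.62, 5.64, 5.91 and 5.13 after EPA and 4.26, 4.27, 4.73, 4.42 and 4.04 after DHA. It was the only called gene of the interferon list. All DHA arrays were under the expressed level, and it was at least 1.37-fold higher after EPA with all arrays (adjusted p = 0.00608) and at least 1.45-fold without EPA replicate 5 (adjusted p = 0.00856). On the 9 arrays its adjusted p was 0.0643. Csf2rb, the common beta chain of the receptors for GM-CSF, interleukin 3 and interleukin 5, read 7.10, 7.32, 7.20, 7.34 and 6.98 after EPA against 6.62, 6.55, 6.50, 6.33 and 6.41 after DHA, and passed both fits at 0.70 and 0.75. Cd52, a surface glycoprotein of leukocytes, differed by 0.64 (adjusted p = 0.00767) and 0.58 (adjusted p = 0.0378) without EPA replicate 5. Cish, a cytokine-induced inhibitor of STAT signalling, passed only with all arrays, at 0.86 (adjusted p = 0.0239) against 0.78 (adjusted p = 0.0893). Without the 3 arrays that went against their labels, 37 genes were called (0.429%), 28 (0.325%) higher and 9 (0.104%) lower. Among them were all 25 genes called without EPA replicate 5. Additions called in neither of the 2 main fits were Tnfrsf12a, the receptor of TWEAK (1.77, adjusted p = 0.00571), and Il1rn, the interleukin 1 receptor antagonist (1.43, adjusted p = 0.0286). Cd68, a lysosomal protein of macrophages (0.75, adjusted p = 0.0296), was another. The other such additions were Pdlim2 (0.49) and Acvr1 (0.35), which were higher, and Rab9 (-0.35), Pxmp4 (-0.85), Slc16a9 (-1.01) and Pank3 (-0.39), which were lower.

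Of 10 macrophage and dendritic cell markers, 9 were expressed and 8 of these were above 0, with a median of 0.24 and 0.18 without EPA replicate 5. Their summed level was 12.5 to 12.9 in the EPA arrays and 12.4 to 12.6 in the DHA arrays. Lyz2, the brightest of these markers, weighs most in that sum (means of 12.2 after EPA and 12.1 after DHA). None was called with all arrays, Csf1r, the receptor that defines the lineage, differed by -0.02, and Cd14 was not expressed. Of 12 T cell markers, 5 were expressed: Cd8a, Thy1, Gzma, Gzmb and Itgae. These summed to 8.93 in EPA replicate 5, 10.1 to 10.3 in the other EPA arrays and 9.52 to 10.3 in the DHA arrays. Gzma, the brightest of them, read 7.71 in EPA replicate 5 and 9.38 to 9.49 in the other EPA arrays. The part of these cells in the results for Ido1, Clec7a, Mmp12 and the other genes above was not tested.

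Prss30, a serine protease, read 8.82, 8.49, 8.91, 9.12 and 8.17 after EPA and 7.63, 7.44, 7.04, 7.48 and 7.40 after DHA, a difference of 1.31 (2.48-fold; adjusted p = 0.0104) and 1.44 without EPA replicate 5 (2.72-fold; adjusted p = 0.00889). Hbegf, a ligand of the epidermal growth factor receptor, differed by 1.13 (adjusted p = 0.0429) and 1.27 (adjusted p = 0.0378). Rhob, a small GTPase that responds to growth factors and stress, read 11.19, 10.82, 10.77, 11.01 and 11.10 against 10.33, 10.19, 9.64, 9.99 and 10.03, with differences of 0.94 and 0.91 (adjusted p = 0.000989 and 0.00447). Pmepa1, an inhibitor of TGF-beta signalling, was called in both fits on the probeset of lowest p (0.66 and 0.72), and Mxd1, a repressor that pairs with MAX, likewise (0.72 and 0.67). The smallest called difference was that of Tmsb4x, which encodes the actin-binding thymosin beta 4, at 0.20 in both fits with an SE of 0.04. Bnip5 and Card14, a scaffold of NF-kappaB signalling, passed only with all arrays, at 1.36 and 1.28 (adjusted p = 0.0493 and 0.0486), and had adjusted p-values of 0.172 and 0.166 without EPA replicate 5. Zfp37, a zinc finger gene, was the only gene called solely without EPA replicate 5 (0.84, adjusted p = 0.0174).

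**Figure D3:**
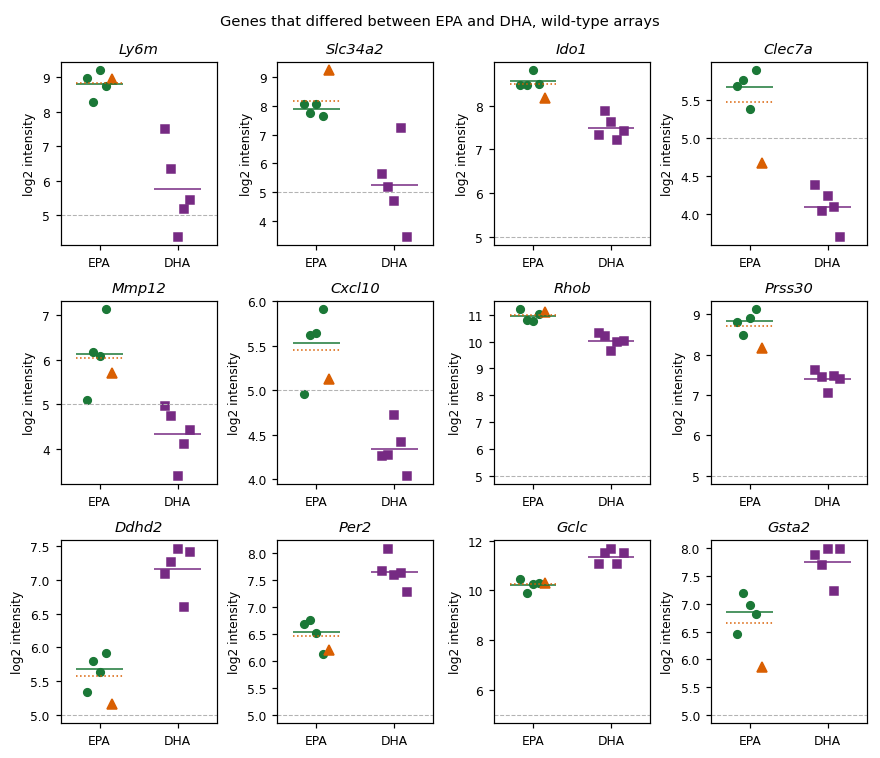
Log2 intensity of 12 called genes on the wild-type EPA arrays (circles; triangle, EPA replicate 5) and DHA arrays (squares), with solid lines for means without EPA replicate 5, dotted lines for the EPA mean with it and the dashed line for the expressed level of 5. The axes differ between genes and do not start at 0; the 8 genes of the first 2 rows are higher after EPA and the 4 of the last row lower.

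Among the 22 genes lower after EPA, Ddhd2, which encodes an intracellular phospholipase and triacylglycerol hydrolase, differed most. It read 5.34, 5.80, 5.64, 5.92 and 5.16 after EPA and 7.10, 7.27, 7.47, 6.59 and 7.41 after DHA, on a single called probeset. The groups did not overlap, and the difference was -1.59 ± 0.30 (SE; 3.02-fold lower; adjusted p = 0.00750) and -1.49 ± 0.31 (2.81-fold; adjusted p = 0.0321) without EPA replicate 5. The 5 genes that passed in both fits were Ddhd2, Gclc, Gsta2, Lifr and D5Ertd579e. Lifr, the receptor of leukemia inhibitory factor, differed by -0.70 in both (adjusted p = 0.00914 and 0.0298). On the 9 arrays Ddhd2 and Gclc passed (adjusted p = 0.0172 and 0.0198), and Gsta2, Lifr and D5Ertd579e missed (adjusted p = 0.0901, 0.102 and 0.128).

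Of the 22 lower genes, 4 belong to glutathione metabolism. Gclc, the catalytic subunit of the ligase that starts glutathione synthesis, read 10.47, 9.90, 10.26, 10.29 and 10.29 after EPA and 11.06, 11.49, 11.68, 11.05 and 11.50 after DHA. The difference was -1.11 (2.17-fold lower; adjusted p = 0.00970) and -1.13 (adjusted p = 0.0272) without EPA replicate 5, and a second Gclc probeset was called with all arrays at -0.88. Gsta2, a glutathione S-transferase of the alpha class, read 6.46, 7.19, 6.97, 6.82 and 5.87 after EPA and 7.89, 7.70, 7.99, 7.23 and 7.999 after DHA, with differences of -1.10 (adjusted p = 0.00662) and -0.90 (adjusted p = 0.0298). All EPA arrays were below all DHA arrays for both genes. Gsta3 and Mgst2, of the same enzyme class and of the membrane-bound transferases, passed with all arrays (-1.09 and -0.34, both adjusted p = 0.0244) and missed without EPA replicate 5 (adjusted p = 0.0953 and 0.108).

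Of 20 expressed glutathione S-transferase genes, 3 were called lower with all arrays and 1 without EPA replicate 5, none higher, and the list's median was -0.09 and -0.04. At the unadjusted p under 0.01, 6 and then 5 were lower, and EPA replicate 5 was the lowest EPA array in all 6. Of 27 expressed genes of glutathione and NRF2 defence, Gclc was called in both fits, 22 were below 0, and the median was -0.23 and -0.16. At the unadjusted threshold 6 were lower and 1 higher with all arrays, and 5 and 0 without EPA replicate 5. Among these, Gclm, the modifier subunit of the same ligase, stood at -0.58 and -0.62 and Ugdh, which makes UDP-glucuronic acid, at -0.39 in both. The aldo-keto reductase Akr1c13 was called with all arrays at -0.51 (adjusted p = 0.0239) and had an adjusted p of 0.0830 without EPA replicate 5 (-0.48). The probeset it shares with Akr1c12 gave -0.40 in both.

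Of clock genes and genes that answer to glucocorticoids, Per2, Usp2 and Sgk1 were called lower after EPA with all arrays and missed the threshold without EPA replicate 5 in the fit over all groups. Per2, a repressor of the circadian clock, read 6.70, 6.77, 6.53, 6.13 and 6.20 after EPA and 7.67, 8.09, 7.60, 7.64 and 7.29 after DHA. No values overlapped, and the difference was -1.19 (2.29-fold lower; adjusted p = 0.0244) and -1.13 (adjusted p = 0.0871) without EPA replicate 5, which passed on the 9 wild-type arrays alone (adjusted p = 0.0329). Usp2, a clock-regulated deubiquitinase, read 7.55, 7.08, 7.18, 6.86 and 7.09 after EPA and 7.94, 8.67, 8.19, 8.07 and 7.56 after DHA, with differences of -0.93 (adjusted p = 0.0436) and -0.92 (adjusted p = 0.110). Of 17 expressed clock genes, 14 were below 0, the median was -0.40 and -0.37, and 6 passed the unadjusted p under 0.01 in each fit, all lower. EPA replicate 5 was the lowest EPA array in 1 of these 6 with all arrays. The others were Cry2 (-0.76 and -0.90), Hlf (-0.83 and -0.93), Tef (-0.70 and -0.78) and Wee1 (-0.79 and -0.65). Nr1d1, another clock repressor, stood on the other side of 0, at 0.59 and 0.47, with adjusted p-values of 0.447 and 0.679.

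Sgk1, a kinase induced by corticosteroids, read 11.81, 11.95, 11.63, 11.64 and 10.76 after EPA and 12.53, 12.66, 12.66, 12.57 and 12.05 after DHA. It differed by -0.94 (adjusted p = 0.0274) and by -0.74 (adjusted p = 0.125) without EPA replicate 5. Of 15 expressed glucocorticoid-responsive genes, 13 were below 0, the median was -0.49 and -0.52, and 4 with all arrays and 6 without EPA replicate 5 were lower at the unadjusted p under 0.01. Tsc22d3, the glucocorticoid-induced leucine zipper, stood at -0.88 and -0.96, and Fkbp5, an immunophilin of the glucocorticoid receptor, at -0.72 and -0.71 with groups that did not overlap. Neither passed after adjustment in either fit.

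Promoters of some lower genes are shown for the motif letters they hold. The RefSeq promoter windows (GRCm38.p6, 250 bases before to 50 after each gene's start) matched 19 of the 22 lower genes with 27 promoters and 30 of the 40 higher genes with 47 promoters. The antioxidant element, searched as TGACNNNGC on both strands, was in 8 of the 27 promoters of lower genes (29.6%), in 3 of the 47 of higher genes (6.38%) and in 12.4% of all 32851 promoters. The E-box CACGTG, searched on both strands, was in 5 (18.5%), 1 (2.13%) and 7.15%. Genes with the antioxidant letters were D5Ertd579e, Flvcr1, Gsta3, Lifr, Osbpl6, Slc25a33, Strbp and Usp2, and those with the E-box were Rmnd1, Sgk1, Slc25a33, Slc35e3 and Strbp. Gclc, Gsta2, Mgst2 and Per2 were not among the genes with either motif, though a lower gene not listed may also lack a window. Below are 1 glutathione gene, 1 clock gene, 1 gene that passed both fits and 1 gene with both motifs, with the matches in capitals. They were picked from the genes with a match.
Gsta3 (chr1:21240335-21240634, plus strand): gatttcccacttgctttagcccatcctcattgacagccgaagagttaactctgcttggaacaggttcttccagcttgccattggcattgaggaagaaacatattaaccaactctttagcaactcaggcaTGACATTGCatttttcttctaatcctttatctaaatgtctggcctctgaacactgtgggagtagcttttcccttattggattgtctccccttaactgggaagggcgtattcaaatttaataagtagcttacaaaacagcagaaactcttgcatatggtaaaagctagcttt
Usp2 (chr9:44084670-44084969, plus strand): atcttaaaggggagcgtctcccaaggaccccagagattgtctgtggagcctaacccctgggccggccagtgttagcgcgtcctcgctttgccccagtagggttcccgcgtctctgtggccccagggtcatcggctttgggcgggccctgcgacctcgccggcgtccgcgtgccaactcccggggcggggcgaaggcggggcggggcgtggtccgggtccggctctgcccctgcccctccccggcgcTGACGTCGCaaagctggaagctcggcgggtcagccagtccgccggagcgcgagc
Lifr (chr15:7129322-7129621, plus strand): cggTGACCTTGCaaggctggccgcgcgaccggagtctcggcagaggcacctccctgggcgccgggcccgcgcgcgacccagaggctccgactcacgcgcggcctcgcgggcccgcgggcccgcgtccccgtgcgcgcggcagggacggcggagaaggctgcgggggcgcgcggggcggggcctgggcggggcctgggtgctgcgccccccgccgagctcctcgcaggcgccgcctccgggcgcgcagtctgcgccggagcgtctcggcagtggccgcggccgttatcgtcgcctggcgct
Slc25a33 (chr4:149774218-149774517, minus strand): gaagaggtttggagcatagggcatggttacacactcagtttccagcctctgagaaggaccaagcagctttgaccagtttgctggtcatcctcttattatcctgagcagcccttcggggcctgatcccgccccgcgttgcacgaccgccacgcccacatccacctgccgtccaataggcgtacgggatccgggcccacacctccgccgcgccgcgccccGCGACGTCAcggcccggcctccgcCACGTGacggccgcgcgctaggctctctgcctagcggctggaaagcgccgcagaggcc
In Gsta3, a transferase, the match started 121 bases before the gene's start. It started 4 bases before the start in Usp2 and 247 bases before it in Lifr, whose second promoter held neither motif. Slc25a33, a mitochondrial carrier of pyrimidine nucleotides, had the antioxidant letters on the reverse strand from 32 bases before the start and the E-box from 8 bases before it, with no overlap between them. Its arrays read 5.89, 6.04, 6.17, 5.74 and 4.88 after EPA and 6.67, 6.83, 6.98, 6.53 and 6.68 after DHA, a difference of -0.99 (adjusted p = 0.0379) and -0.78 without EPA replicate 5 (adjusted p = 0.149). The heat shock element GAANNTTC was in 11.1% of the promoters of lower genes, 8.51% of those of higher genes and 7.86% of all, and the cAMP element TGACGTCA in 0%, 2.13% and 1.79%. No called gene had the consensus letters of the DR1 direct repeat bound by PPAR (in 0.0396% of all promoters) or of the sterol element (0.0913% of all) in these windows.

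Other groups differed mostly at the unadjusted threshold, and several had fewer members past it without EPA replicate 5. Of 44 expressed interferon-induced genes, 42 were above 0, beside 48.3% of all expressed genes. With all arrays 15 were higher at the unadjusted p under 0.01 and none lower, beside 3.19% and 3.32% of all expressed genes. At that threshold 4 were higher without EPA replicate 5, 5 without the 3 arrays and 9 on the 9 wild-type arrays alone. EPA replicate 5 was the highest EPA array in 12 of the 15, and the list's median fell from 0.41 to 0.27. Psmb8, a subunit of the immunoproteasome, read 9.67, 9.40, 9.34, 9.46 and 10.21 after EPA and 9.10, 9.31, 9.02, 9.12 and 9.19 after DHA, with differences of 0.47 and 0.32 (adjusted p = 0.146 and 0.416). Irf8, a transcription factor of myeloid cells, read 9.19, 9.09, 9.07, 9.20 and 9.54 after EPA and 8.86, 8.71, 8.71, 8.76 and 8.82 after DHA. Its groups did not overlap with or without that array, at 0.45 and 0.36 (adjusted p = 0.0645 and 0.203).

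Of 27 expressed genes of heat shock proteins and chaperones, none was called, 24 were below 0, 12 were lower at the unadjusted p under 0.01 with all arrays and 5 without EPA replicate 5, which was the lowest EPA array in 11 of the 12. The median was -0.24 and -0.16. Hsph1, a chaperone of the Hsp110 family, read 9.31, 9.76, 9.25, 9.34 and 8.01 after EPA and 10.02, 9.95, 9.47, 10.15 and 10.50 after DHA, at -0.88 (adjusted p = 0.147) and -0.60 (adjusted p = 0.417). Hspa1b, the stress-induced Hsp70, went from -0.61 with all arrays to 0.02 without EPA replicate 5.

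Of 20 expressed genes of cholesterol synthesis, none was called, 16 were above 0, the median was 0.27 and 0.22, and 6 with all arrays and 3 without EPA replicate 5 passed the unadjusted p under 0.01, all higher. Msmo1, a sterol oxidase of the pathway, read 10.44, 10.12, 10.46, 10.37 and 10.65 after EPA and 9.59, 10.11, 10.19, 10.02 and 9.32 after DHA, at 0.56 (adjusted p = 0.0585) and 0.50 (adjusted p = 0.172). Hmgcs1, the synthase before HMG-CoA reductase, differed by 0.73 and 0.62 on its probeset of lowest p. Immediate early genes were above 0 in 23 of 24, with a median of 0.34 and 0.37, and 4 and then 2 were higher at that threshold. Myc stood at 0.68 and 0.67, Klf10, a TGF-beta-inducible factor, at 0.37 and 0.41, and Egr1 at 0.66 and 0.82 (adjusted p = 0.536 and 0.539). Of 25 expressed cytokine and chemokine genes, 7 and then 5 were higher at that threshold, and 8 on the 9 arrays, among them Il33, an epithelial alarmin (1.09 and 1.04), and Socs3, an inhibitor of cytokine signalling (1.26 and 1.09). None of the 44 cytosolic ribosomal protein genes passed either threshold, and the 74 respiratory chain genes had a median of 0.02 and 0.03. The genes named in this and the preceding list descriptions that were not called were chosen after their values were seen.

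**Figure D4:**
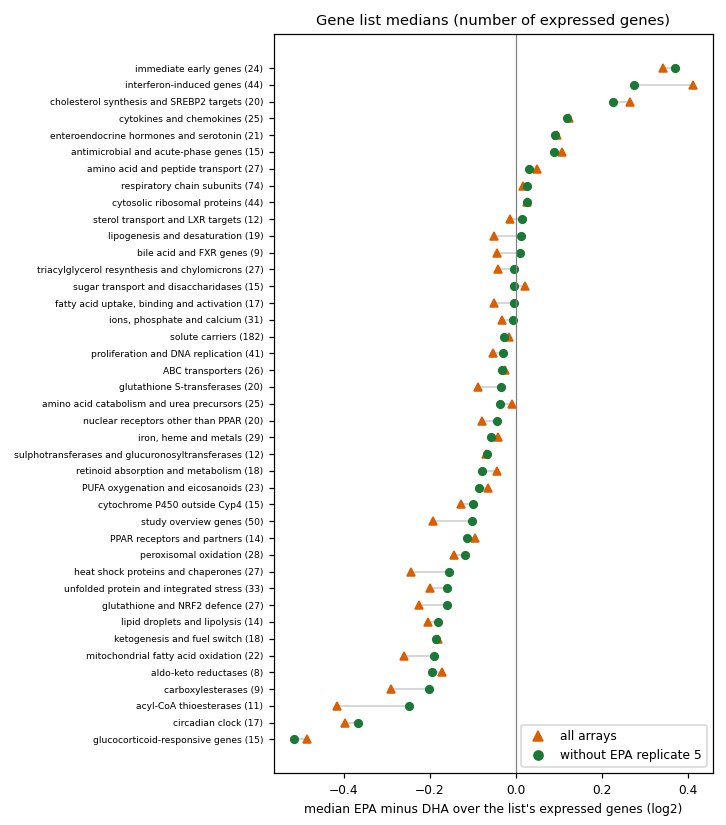
Median difference between wild-type EPA and DHA arrays (EPA minus DHA, log2) over the expressed genes of each list of 8 or more, with all arrays (triangles) and without EPA replicate 5 (circles); the number of genes is in brackets. The interferon, heat shock and thioesterase medians move towards 0 without EPA replicate 5, and the clock and glucocorticoid medians stay at -0.37 and -0.52.

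Transport and phase I/II metabolism genes were the subject of the study. Of 182 expressed solute carriers, 3 were called higher (Slc34a2, Slc5a8 and Slc7a9) and 3 lower (Slc25a33, Slc18b1 and Slc35e3) with all arrays, and Slc34a2 alone without EPA replicate 5. Without the 3 arrays Slc34a2 and Slc5a8 were called higher and Slc16a9 lower (adjusted p = 0.0326), and on the 9 arrays Slc16a9 and Slc35e3 were called lower (adjusted p = 0.0205 and 0.0497) and none higher. Slc7a9, the light chain of the cystine and dibasic amino acid transporter, read 11.82, 11.74, 12.003, 11.81 and 11.92 after EPA and 11.64, 11.63, 11.49, 11.61 and 11.40 after DHA, a difference of 0.30 (adjusted p = 0.0288) and 0.29 (adjusted p = 0.0977). The list's median was -0.02 and -0.03. None of 26 ABC transporters and none of 15 cytochrome P450 genes outside the Cyp4 family was called. Cyp4b1, a fatty acid and xenobiotic hydroxylase, read 10.59, 10.40, 10.73, 10.36 and 10.11 after EPA and 11.02, 11.18, 11.24, 10.87 and 10.94 after DHA, at -0.61 (adjusted p = 0.0244) and -0.53 (adjusted p = 0.101). Of 50 genes that the study displays as regulated by the agonists, which were chosen on these samples, 3 were called lower with all arrays (Cyp4b1, Akr1c13 and Gsta3), none higher, and none without EPA replicate 5.

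The markers of other cells show what else the homogenates held. Enterocyte markers were expressed in 13 of 15 and summed to 16.8 to 16.9 in the EPA arrays and 16.7 to 16.9 in the DHA arrays. None of 7 erythrocyte markers and 1 of 8 hepatocyte markers, Ttr, were expressed. Pancreatic acinar markers varied widely within both groups, from 14.0 to 17.3 after EPA and from 14.7 to 17.8 after DHA. All 18 on the array were expressed, 17 had lower means after EPA, the median was -1.41 with all arrays and -1.76 without EPA replicate 5, and none was called. With their mean level as a covariate, chosen after seeing the data, 80 genes were called, of which 57 were among the 62.

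The same comparison in PPARα-null mice (5 EPA and 4 DHA arrays) called 62 genes (0.719%), 49 higher (0.568%) and 13 lower (0.151%) after EPA, and 52 (0.603%) without both EPA replicates 5, 35 higher (0.406%) and 17 lower (0.197%). Of the 40 genes higher after EPA in wild-type mice, 36 had the same sign in PPARα-null mice and 9 were called there, and of the 22 lower genes 19 had the same sign and 2 were called. Without both EPA replicates 5, 36 and 19 again had the same sign, 7 and 4 were called, and no gene was called in opposite directions. Of the genes called without EPA replicate 5, 19 of 20 higher and 4 of 5 lower genes had the same sign in that fit. The share of same signs over all expressed genes was not counted. Ido1 differed by 1.03 in PPARα-null mice (adjusted p = 0.000647) and by 1.01 without their EPA replicate 5 (adjusted p = 0.00292), beside 1.00 and 1.07 in wild-type mice. With all PPARα-null arrays, Lifr (-0.73), Rhob (0.76), Pmepa1 (0.65), Hk2, a hexokinase (1.05), and Cdr2, a neuronal autoantigen (-0.66), also passed. So did Clec7a (1.08), Mmp12 (1.37), Hbegf (1.33) and Hsd17b2 (0.57). All of these values include PPARα-null EPA replicate 5. In the same fit of PPARα-null mice, Prss30 stood at -0.37 (adjusted p = 0.788) and Slc34a2 at 0.61 (adjusted p = 0.865). Without the EPA replicate 5 of those mice, they stood at -0.23 (adjusted p = 0.900) and 1.23 (adjusted p = 0.350).

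None of these contrasts was shown to differ between genotypes. The interaction term, the difference in wild-type minus that in PPARα-null mice, passed for 0 genes in limma, with a lowest adjusted p of 0.744, and before adjustment 166 genes (1.92%) lay under 0.01 and 695 (8.06%) under 0.05. Without both EPA replicates 5 it again passed for 0 genes, with a lowest adjusted p of 0.996 and 60 and 393 genes under those limits before adjustment.

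**Figure D5:**
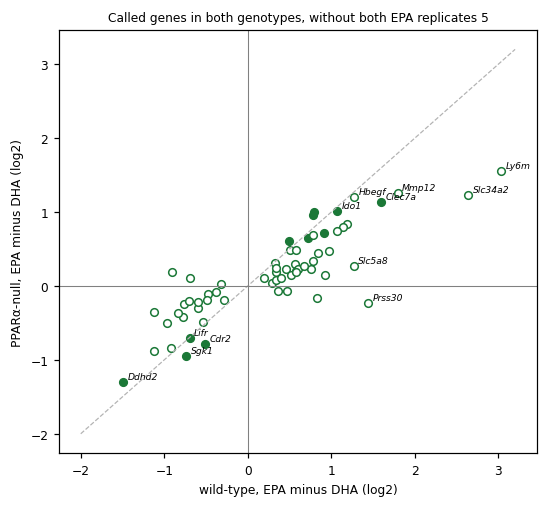
EPA minus DHA (log2) in wild-type mice (horizontal) against PPARα-null mice (vertical) for the 63 called genes, without EPA replicate 5 of either genotype; filled circles have an adjusted p under 0.05 in PPARα-null mice and the dashed line marks equal differences. Most points lie on the same side of 0 on both axes, Ido1 and Ddhd2 near the line and Ly6m, Slc34a2 and Prss30 below it.

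The wild-type arrays of the other agents give a reference level for these genes. For the 40 genes higher after EPA, the OA mean was nearer to DHA in 30 and lay between EPA and DHA in 27, and the WY14643 mean was nearer to DHA in 32 and below both in 18. For the 22 genes lower after EPA, the OA mean was nearer to DHA in 13 and the WY14643 mean in 18, and WY14643 lay above both in 13. These are counts with no test, on EPA means that include EPA replicate 5, and untreated mice were not analysed here.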

How the data were processed

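Small intestinal RNA was measured on 35 Affymetrix mouse genome arrays, of which 10 are compared here. The authors normalised the arrays with GCRMA, and the deposited values are on the log2 scale (-0.17 to 15.03, array medians 2.83 to 2.88, with 31.6% to 32.4% of probesets above the expressed level of 32). The version of GCRMA is not given in the sources used here. The depth is that of arrays, so the number of arrays limits the precision. Control probesets (64 of 45101) were left out. A single gene symbol was available for 34945 probesets, several for 932 and none for 9160, and only the first were named, except the Cyp4a10 probeset.

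limma 3.58.1 in R 4.3.3 fitted the 8 group means on all arrays with an intensity trend, and on 34 arrays without wild-type EPA replicate 5. Benjamini-Hochberg correction ran over 15384 expressed probesets, and a gene was called when at least 1 probeset with a single symbol had an adjusted p under 0.05. A fold is the ratio of group means where both reach 32, "at least" against 32 where only 1 does, and is not given where neither does. Gene lists are described by counts and by the median over 1 probeset per gene, that of highest mean, with no test. Values of single genes were tested by exact two-sided permutation. The genes named are up to 12 of each direction by size in each fit, up to 4 called members of each list, and the members said to have been chosen later. The members and the lists were chosen with earlier results of these data known. In data simulated for the comparison with all arrays (15384 probesets), 50% of differences of 0.5, 68% of 0.75, 96% of 1 and 100% of 2 on the log2 scale were recovered. For the comparison without EPA replicate 5 the shares were 44%, 62%, 94% and 100%. False calls numbered 10 (5.99% of calls) and 13 (7.98%). The simulated noise was independent and normal, with the same spread in all groups, and 50 probesets changed at each size. Recovery in the real data may differ. Replicate numbers did not pair the samples: deviations from the group means correlated between same-numbered EPA and DHA arrays at 0.51, -0.11, -0.09, 0.07 and 0.15.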

Additional observations from a re-analysis of the deposited data

Results flagged for a closer look

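In groups of 5 arrays, 12 of 162 groups examined held an array whose gap to its nearest neighbour was large for the range of the group by Dixon's criterion, where chance gives about 1 in 20. EPA replicate 5 was that array for the Cyp4a10 probeset (1.81 against 8.15 to 8.68 in the other EPA arrays), Slc34a2 (9.22 against 7.65 to 8.07), Sgk1 (10.76 against 11.63 to 11.95), Cdr2 (9.64 against 10.1 to 10.2), Aldh1a7 (8.49 against 9.43 to 9.70) and the summed T cell markers (8.93 against 10.1 to 10.3). Nipal1, a NIPA-like membrane protein, was low in EPA replicate 4 (8.32 against 8.75 to 8.92). Among the DHA arrays, Cd52 was low in replicate 3 (8.09 against 8.45 to 8.53), the Cyp4a10 probeset was low in replicate 4 (8.47 against 9.51 to 9.88) and Sgk1 was low in replicate 5 (12.05 against 12.53 to 12.66). In DHA replicate 2, Sertad1 was high (8.86 against 8.63 to 8.69), as was Shisa5 (9.25 against 8.95 to 9.02). Of these genes, Cd52, Nipal1 and Slc34a2 passed the threshold both with and without EPA replicate 5.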

How the results depend on the processing

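No called gene changed direction under 27 settings tried. Of these, 24 measured all 63 genes, and the other 3 left out some of their probesets and measured at least 51. Several settings, such as other thresholds or filters, leave the difference itself unchanged, and the genes were called on these arrays. A change of direction was therefore unlikely from the start. Of the 63 genes, 16 passed in all 10 fits that left out 1 wild-type EPA or DHA array. The counts were less stable. Against 62 genes with all arrays, 20 were called when only the 10 arrays were fitted, 146 with array weights, 17 at an adjusted p under 0.01, 561 at an unadjusted p under 0.01 and 37 without the 3 arrays that went against their labels. Leaving out 1 array gave 17 to 95. The 561 genes became 881 with no filter on low values, and 377 to 706 without 1 array. Against 25 genes without EPA replicate 5, 105 were called with array weights, 13 with the acinar marker level as a covariate (chosen after seeing the data), 9 at an adjusted p under 0.01, 401 at an unadjusted p under 0.01, and 6 to 23 without a further array; the fit of only the 9 arrays called 19. The 401 became 689 with no filter, 651 with array weights and 266 to 492 without a further array. The cause was not tested.

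With the replicate number as a block, 16 genes were called on the 10 arrays and 0 on the 9 arrays in limma (lowest adjusted p 0.0612, with 905 genes at an unadjusted p under 0.05 and 274 under 0.01). The numbers are shared labels only, and not every array correlated best with its own number.

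Without 1 array, the Cyp4a10 difference ranged from -2.67 to -0.95 (exact permutation p from 0.0159 to 0.103) and that of Ppara from -1.82 to -1.01 (exact permutation p from 0.00794 to 0.0714). The interaction passed for 0 genes in each setting run. In simulated data, differences of 0.5 on the log2 scale were recovered in 50% of cases with all arrays and in 44% without EPA replicate 5. Of the calls in those data, 5.99% and 7.98% were false.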
